A study of Mus musculus with 12 samples.

Results

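Semaphorins are guidance proteins, some secreted and some held in the membrane, and plexins are their main receptors. The secreted class 3 semaphorins usually need a neuropilin as the binding partner of an A-type plexin, whereas the membrane-bound classes mostly bind plexins directly, and an activated plexin acts on small GTPases and the cytoskeleton. Collapsin response mediator proteins (CRMPs) are cytosolic proteins that bind tubulin and carry part of the class 3 semaphorin signal inside the cell. In peripheral nerve the system is best known for steering axons, and Schwann cells, the glia that ensheathe and myelinate those axons, make both ligands and receptors.

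The genes described here are the protein-coding members of these families in the mouse, chosen by symbol and not by any measured value. They are 36 of the 25700 genes listed, namely 20 semaphorins of classes 3 to 7, 9 plexins, 2 neuropilins (Nrp1 and Nrp2) and 5 CRMPs (Crmp1 and Dpysl2 to Dpysl5). All 36 passed the filter on low counts, within 18597 genes tested. RNA was measured in Schwann cells sorted from dissociated sciatic nerves of mice at postnatal day 5, in 12 libraries. Every mouse carried P0Cre (P0Cre -/+ : ReYFP Tg/+ : βAct-DsRed Tg/+, on a C57bl/6J background), so that Cre under the promoter of the myelin protein P0 switched on eYFP in the Schwann cell lineage, while DsRed was driven by the β-actin promoter. Cells were sorted by eYFP and by side scatter (SSC-A), a measure of internal granularity, into allSC (the mixed population), mSC (enriched in myelinating Schwann cells) and nmSC (enriched in not-myelinating ones). There were 4 libraries per gate, each from 1 mouse. The mSC and nmSC gates were drawn on clouds of events that were only partly distinct, so both are enriched rather than pure, and nmSC at this age holds immature cells.

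Library totals ranged from 10092477 to 14482001 counts for allSC, from 10777161 to 16918122 for mSC and from 8180927 to 13077387 for nmSC. Relative to the unscaled library totals, a floor of 3 counts corresponded to 0.177 to 0.367 CPM. CPM elsewhere is the count of a gene relative to the scaled total of its library. On that scale 3 counts in the mSC library of mouse 4 came to 0.375 CPM. The gate labels were checked with marker genes. All 8 markers of myelinating Schwann cells were higher in mSC than in nmSC, and all 7 markers of immature and proliferating Schwann cells were lower. Of 3 markers of the Schwann cell lineage, 1 was higher and 1 was lower in mSC. Sox10, which is among the 3, stood at 267 CPM in mSC and 266 CPM in nmSC. The mSC library of mouse 4 stood apart from the other libraries of its gate. Its mean correlation across genes with the rest of its gate was the lowest (r = 0.972), its myelin markers summed to 166462 CPM where the rest of the gate reached at most 141111 CPM, and it held the lowest mSC value for 23 of the 36 genes. Calls among the 36 genes that changed without it are named with their values.

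CPM values below are scaled by TMM factors and listed in the order of mouse 1 to mouse 4. Levels of different genes are compared only as RPKM, which divides CPM by the length of the exons in kilobases. Differences are log2 fold changes ± standard error with n = 4 libraries per gate, tested with the quasi-likelihood method of edgeR, and p-values are adjusted over the 18597 genes by the Benjamini-Hochberg procedure. Fold values written alone are on the linear scale.

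The widest differences between mSC and nmSC were in Sema5a, Sema5b and Sema3g. For these 3 genes the window from 250 bases before to 50 bases after the RefSeq start (GRCm38.p6, plus strand) is shown. Capitals mark the GC box GGGCGG or its reverse complement CCGCCC, to which Sp1-type factors are known to bind. The windows lie at chr15:32244563-32244862 for Sema5a, chr16:35541112-35541411 for Sema5b and chr14:31217623-31217922 for Sema3g.
Sema5a: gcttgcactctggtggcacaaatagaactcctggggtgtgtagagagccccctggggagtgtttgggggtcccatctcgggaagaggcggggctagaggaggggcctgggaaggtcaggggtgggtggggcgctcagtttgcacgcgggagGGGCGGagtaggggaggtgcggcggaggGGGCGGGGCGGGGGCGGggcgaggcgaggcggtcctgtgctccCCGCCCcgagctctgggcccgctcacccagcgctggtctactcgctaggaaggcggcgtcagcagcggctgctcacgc
Sema5b: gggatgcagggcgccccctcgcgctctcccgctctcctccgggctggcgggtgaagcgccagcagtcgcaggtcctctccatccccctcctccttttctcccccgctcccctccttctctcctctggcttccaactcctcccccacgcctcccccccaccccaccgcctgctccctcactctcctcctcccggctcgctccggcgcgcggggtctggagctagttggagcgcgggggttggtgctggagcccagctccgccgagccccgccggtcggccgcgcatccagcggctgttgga
Sema3g: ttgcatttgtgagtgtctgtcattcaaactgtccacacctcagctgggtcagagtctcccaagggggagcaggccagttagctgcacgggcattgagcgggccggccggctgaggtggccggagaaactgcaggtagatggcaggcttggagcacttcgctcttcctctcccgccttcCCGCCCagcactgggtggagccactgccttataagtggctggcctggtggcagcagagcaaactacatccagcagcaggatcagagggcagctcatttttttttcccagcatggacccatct
The Sema5a window held 5 GC boxes, of which 2 shared 1 base, the Sema5b window held 0 and the Sema3g window held 1, with 71.3%, 73% and 58.7% of bases G or C. Windows were found for 28 of the 36 genes, 40 windows in all since some genes have several starts, and 30 of the 40 (75%) held a GC box, against 35.7% of 32851 windows of all genes. The letters of an Egr motif (GCGTGGGCG), a Sox motif (ACAAAG) and a Tead motif (GGAATG), read on both strands, were in none of the 3 windows shown. They were in 1, 11 and 3 of the 40 windows, and in 0.612%, 18.7% and 14.7% of all windows. The motifs were chosen after these windows had been seen, and a match describes the letters only.

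Over all 36 genes, 25 differed between mSC and nmSC, 10 higher and 15 lower in mSC. Of all tested genes 40.5% differed, 20.4% higher and 20.2% lower. The median log2 fold change was -0.44 over the 36 genes and -0.16 over all tested genes. A call with at least a 2-fold difference was found for 14 of the 36 genes, against 21.4% of all tested genes. The mSC and nmSC libraries did not overlap for 22 genes, 8 above and 14 below, against 34.2% of all tested genes. Of the 25 called, 24 had the same direction in all 4 pairs of libraries that share a subject number. That count is no separate support, since the 25 were called from these same libraries. Ranges that do not overlap also fix the direction in every pair. All 14 genes with a 2-fold difference kept their call and direction in each of 19 alternative analyses. The scaling of the libraries shifts the balance. Without TMM factors the median of all genes moved from -0.16 to -0.73, and 30 of the 36 genes were called, 6 higher and 24 lower. In that scaling 11864 of the 18597 tested genes were called, 1443 of them higher. In bulk RNA of this kind, fewer cells of a type and less RNA per cell cannot be told apart.

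**Figure D1:**
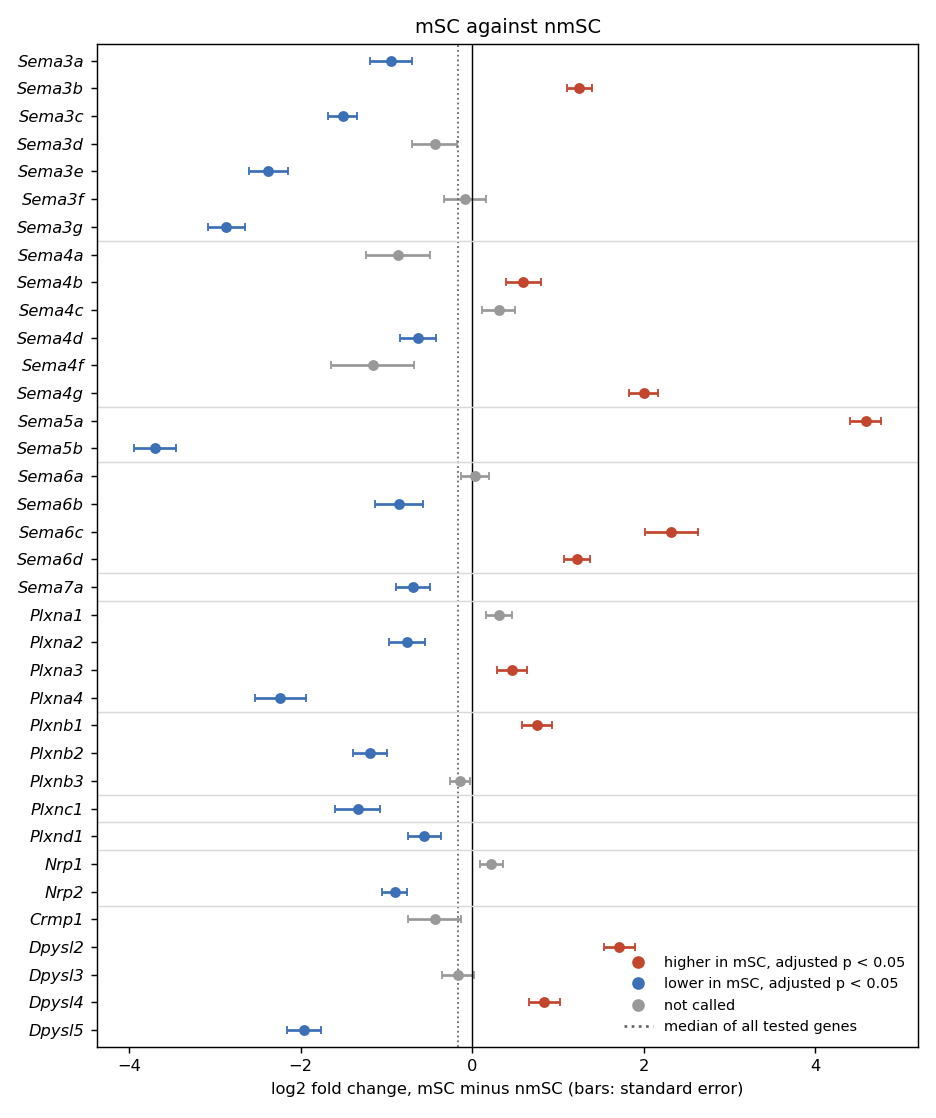
Log2 fold change of each of the 36 genes between mSC and nmSC (x axis, mSC minus nmSC, with the standard error as bars, n = 4 libraries per gate), grouped by family. Sema5a lies furthest to the right (4.59) and Sema5b furthest to the left (-3.70), and the dotted line is the median of all tested genes (-0.16).

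Per length of transcript, 7 of the 36 genes were above 10 RPKM as a mean of the 12 libraries and 11 were under 1 RPKM. The highest were the secreted semaphorin Sema3b (300 RPKM), the CRMP Dpysl2 (141 RPKM), the transmembrane semaphorin Sema6d (72.5 RPKM) and the plexin Plxnb3 (64.4 RPKM), which ranked at the 99.6th, 98.8th, 97.0th and 96.5th percentile of all tested genes. Sema4c, Nrp2 and Sema6c followed with 17.9, 15.4 and 10.2 RPKM. As a gauge of low levels, 1452 olfactory and vomeronasal receptor genes, which Schwann cells are not known to use, had a 95th percentile of 0.664 RPKM in allSC, 0.514 RPKM in mSC and 0.741 RPKM in nmSC. At this gauge 7 genes were at or under that level in every gate, namely Crmp1, Plxna2, Plxnc1, Sema3a, Sema3d, Sema4a and Sema4f. Their values were within the range of receptor genes, and 3 of them (Plxna2, Plxnc1 and Sema3a) were called between mSC and nmSC all the same. Another 5, Plxna4, Sema3e, Sema5a, Sema5b and Sema6b, were at or under it in at least 1 gate. With the mean transcript length in place of the exon union, RPKM rose for most genes and the order changed. Plxnb1 went from 9.56 to 49.8 RPKM and passed Sema4c (17.9 to 37.8) and Nrp2 (15.4 to 32.2). Crmp1 went from 0.365 to 1.99 RPKM. The counts above 10 and under 1 RPKM and the comparison with receptor genes thus hold for the exon union only.

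**Figure D2:**
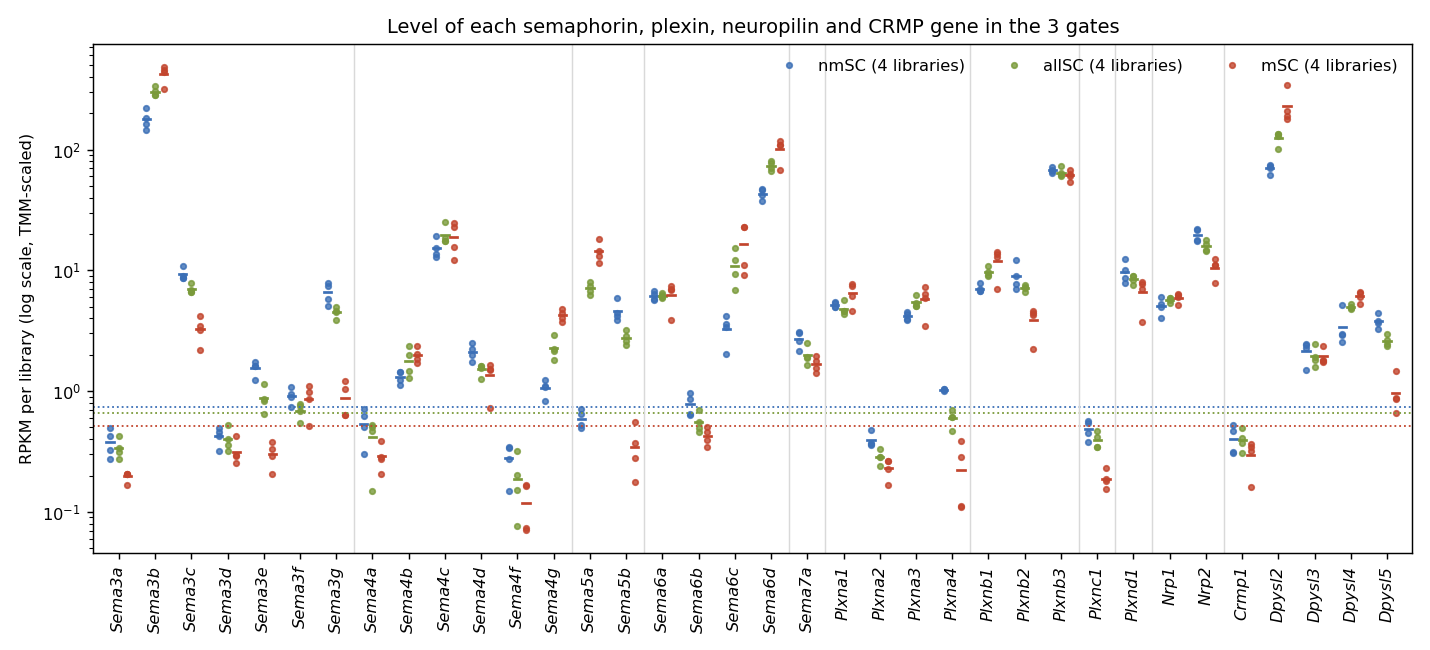
RPKM of each gene in each library (y axis, log scale), with nmSC in blue, allSC in green and mSC in red, a short line at each mean of 4 libraries, and dotted lines at the 95th percentile of receptor genes in each gate. Sema3b has the highest mean in each gate, from 177 RPKM in nmSC to 422 RPKM in mSC, and Sema5a crosses the dotted lines between nmSC (0.592 RPKM) and mSC (14.3 RPKM).

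Among the 7 class 3 semaphorins, the secreted ligands, Sema3b was higher in mSC, whereas Sema3a, Sema3c, Sema3e and Sema3g were lower and Sema3d and Sema3f did not pass the test. Sema3b (chr9:107597674-107609229, minus strand, GRCm38), a ligand that binds neuropilins, stood at 2296, 2082, 2159 and 1524 CPM in the mSC libraries, at 1595, 1342, 1349.6 and 1455 CPM in the allSC libraries and at 691, 776, 1054 and 866 CPM in the nmSC libraries. The mSC and nmSC ranges were apart and the 4 allSC libraries lay between the nmSC range and the mSC mean (log2 fold change 1.25 ± 0.15, edgeR adjusted p = 1.41e-06). Of the summed semaphorin RPKM, which ranged from 437 to 667 in mSC and from 239 to 331 in nmSC, this gene alone made up most in every gate.

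Sema3g, a neuropilin ligand known chiefly from endothelial cells, stood at 5.504, 2.87, 4.74 and 2.87 CPM in the mSC libraries, at 20.98, 17.6, 20.7 and 22.5 CPM in the allSC libraries and at 23.2, 26.5, 35.7 and 33.8 CPM in the nmSC libraries. Each mSC library was below each library of the other gates (log2 fold change -2.87 ± 0.21, edgeR adjusted p = 2.11e-09). The difference of mSC from allSC was -2.32 ± 0.21 (edgeR adjusted p = 1.80e-07), and that of allSC from nmSC was -0.55 ± 0.19 (edgeR adjusted p = 0.0768). Leaving out mSC replicate 1 (adjusted p = 0.0370), mSC replicate 4 (0.0229) or nmSC replicate 1 (0.0485) brought the last of these under the threshold of 0.05. Endothelial markers were mixed, higher in mSC in sum but with a median log2 fold change of -0.94 between mSC and nmSC. Of 7 such markers 6 were tested, and 2 (Egfl7 and Vwf) were higher and 2 lower in mSC. The 7 summed to 54.1 to 77.2 CPM in mSC, 39.8 to 45.6 CPM in allSC and 19.2 to 27.8 CPM in nmSC. Pecam1, which defines endothelium, stood at 1.25 CPM in mSC and 2.45 CPM in nmSC, and Cldn5 was too low to be tested. Their part in the results was not tested.

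Sema3e, which binds Plxnd1 without a neuropilin, stood at 3.06, 1.91, 2.72 and 3.496 CPM in the mSC libraries, at 6.05, 8.04, 10.7 and 7.65 CPM in the allSC libraries and at 15.1, 15.1, 11.4 and 16.3 CPM in the nmSC libraries. The 3 gates did not overlap, with mSC lowest and nmSC highest (log2 fold change -2.38 ± 0.22, edgeR adjusted p = 6.24e-08). Sema3c, a ligand known from the development of the cardiac outflow tract, stood at 29.8, 22.8, 24.7 and 15.6 CPM in the mSC libraries, at 47.1, 48.98, 47.4 and 55.98 CPM in the allSC libraries and at 62.1, 62.1, 64.2 and 78.2 CPM in the nmSC libraries. Again mSC, allSC and nmSC occupied separate ranges in rising order (log2 fold change -1.51 ± 0.17, edgeR adjusted p = 4.37e-07). The nmSC library of mouse 4 was the highest of its gate for Sema3c.

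Sema3a, the class 3 ligand that repels sensory axons through Nrp1, was low in every gate, with 2.73 ± 0.281 CPM (SD, n = 4) in mSC and 5.28 ± 1.37 CPM in nmSC (log2 fold change -0.95 ± 0.24, edgeR adjusted p = 0.00452). Its RPKM lies within the range of receptor genes, with counts per library of 23 to 37 in mSC and 51 to 81 in nmSC. For Sema3d, at 2.71 ± 0.6296 CPM in mSC and 3.65 ± 0.628 CPM in nmSC, the difference was -0.44 ± 0.26 (edgeR adjusted p = 0.184). Sema3f, a ligand of Nrp2, was at 4.51 ± 1.34 and 4.76 ± 0.722 CPM, with a difference of -0.08 ± 0.25 (edgeR adjusted p = 0.81) whose sign turned in some alternatives.

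Of the 6 class 4 semaphorins, which are transmembrane ligands mostly of B-type plexins, Sema4g and Sema4b were higher in mSC and Sema4d was lower. Sema4g, which binds Plxnb2, stood at 32.3, 35.2, 38.5 and 41.6 CPM in the mSC libraries, at 18.7, 15.7, 19.4 and 25.5 CPM in the allSC libraries and at 9.42, 10.7, 9.57 and 7.19 CPM in the nmSC libraries. The 3 gates did not overlap and mSC was 4.00-fold higher than nmSC (log2 fold change 2.00 ± 0.17, edgeR adjusted p = 1.61e-08). Sema4b, at 11.2 ± 1.59 CPM in mSC and 7.401 ± 0.884 CPM in nmSC, differed by 0.60 ± 0.20 (edgeR adjusted p = 0.0245), a call that was lost without mSC replicate 1 (adjusted p = 0.0580), nmSC replicate 1 (0.0521) or nmSC replicate 4 (0.0662).

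Sema4c, another Plxnb2 ligand and the class 4 member with the highest RPKM, stood at 72.3, 104, 113 and 56.2 CPM in the mSC libraries, at 80.9, 80.9, 85.3 and 115 CPM in the allSC libraries and at 58.9, 62.6, 88.3 and 69.8 CPM in the nmSC libraries. The 3 gates overlapped and the difference of 0.31 ± 0.20 (edgeR adjusted p = 0.215) between mSC and nmSC was not called. Without mSC replicate 4 it was 0.47 (edgeR adjusted p = 0.0272). Of its exon bases 7.27% overlap D430040D24Rik on the opposite strand, and reads from the pair cannot be told apart without strand. Sema4d, the main ligand of Plxnb1, was at 10.4 ± 3.19 CPM in mSC and 16.2 ± 2.496 CPM in nmSC and differed by -0.63 ± 0.21 (edgeR adjusted p = 0.0208), a call lost without nmSC replicate 3 (adjusted p = 0.0664). Neither Sema4a nor Sema4f, both within the range of receptor genes, was called. Sema4a, at 1.57 ± 0.406 and 2.89 ± 0.9496 CPM, differed by -0.87 ± 0.37 (edgeR adjusted p = 0.0696), and passed without allSC replicate 4 (adjusted p = 0.0427), mSC replicate 1 (0.0478) or nmSC replicate 1 (0.0377). Sema4f, at 0.629 ± 0.286 and 1.47 ± 0.481 CPM, differed by -1.16 ± 0.48 (edgeR adjusted p = 0.0616), and passed with the mouse as a block (-1.24, adjusted p = 0.0357) and without nmSC replicate 4 (adjusted p = 0.0371).

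The 2 class 5 semaphorins, transmembrane proteins with thrombospondin repeats in their outer part, differed in opposite directions and more than any other of the 36 genes. Sema5a (chr15:32244810-32696341, plus strand, GRCm38), a ligand of Plxnb3 among others, stood at 340.5, 243, 272 and 215 CPM in the mSC libraries, at 151, 117, 139 and 126 CPM in the allSC libraries and at 9.71, 9.198, 12.1 and 13.2 CPM in the nmSC libraries. The lowest mSC library was above the highest allSC library, and the lowest allSC library was far above the highest nmSC library. The mean was 24.1-fold higher in mSC than in nmSC (log2 fold change 4.59 ± 0.18, edgeR adjusted p = 6.92e-13). The difference of mSC from allSC was 1.01 ± 0.15 (edgeR adjusted p = 9.12e-05) and that of allSC from nmSC was 3.58 ± 0.17 (edgeR adjusted p = 4.91e-11).

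Sema5b (chr16:35541145-35664732, plus strand, GRCm38), which acts on Plxna1 and Plxna3 in the retina, stood at 1.97, 2.61, 3.96 and 1.25 CPM in the mSC libraries, at 17.1, 20.3, 22.6 and 18.3 CPM in the allSC libraries and at 27.6, 31.7, 41.7 and 29.8 CPM in the nmSC libraries. Here nmSC was highest and mSC lowest, again with no overlap between gates (log2 fold change -3.70 ± 0.24, edgeR adjusted p = 3.80e-10). The difference of mSC from allSC was -2.96 ± 0.24 (edgeR adjusted p = 4.03e-08). The difference of allSC from nmSC was -0.74 ± 0.20 (edgeR adjusted p = 0.0235) and lost its call without allSC replicates 1, 2 or 4 or nmSC replicates 2 or 3, the highest adjusted p being 0.0989. As a ratio of RPKM, Sema5a to Sema5b was 48.0 in mSC (26.0 to 65.5 over libraries), 2.61 in allSC (2.18 to 3.34) and 0.130 in nmSC (0.110 to 0.168), so the more abundant of the pair was Sema5a in mSC and allSC and Sema5b in nmSC.

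Of the 4 class 6 semaphorins, transmembrane ligands of A-type plexins, Sema6c and Sema6d were higher in mSC, Sema6b was lower and Sema6a was not called. Sema6d (chr2:124089969-124667770, plus strand, GRCm38), a ligand of Plxna1, stood at 1238, 1157, 1149.9 and 708 CPM in the mSC libraries, at 840.2, 748, 704 and 818 CPM in the allSC libraries and at 439.6, 393, 488 and 499 CPM in the nmSC libraries. All 4 mSC libraries were above all 4 nmSC libraries, while that of mouse 4 fell into the allSC range (log2 fold change 1.22 ± 0.15, edgeR adjusted p = 2.67e-06). Without mSC replicate 4 the difference was 1.38. Against allSC the difference was 0.45 ± 0.15 (edgeR adjusted p = 0.0458), which was not called with the mouse as a block (0.44, adjusted p = 0.0767), with library size alone (0.16, adjusted p = 0.472), in a model of mSC and allSC only (0.41, adjusted p = 0.119) or with a filter of at least 1 CPM in 4 libraries (0.44, adjusted p = 0.0507), nor without any 1 of the 4 allSC libraries, mSC replicates 1, 2 or 3, or nmSC replicates 2 or 4 (adjusted p from 0.0505 to 0.130). The call was thus lost in 13 of the 19 alternatives.

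Sema6c stood at 65.6, 136, 136 and 53.8 CPM in the mSC libraries, at 40.5, 55.2, 72.9 and 90.5 CPM in the allSC libraries and at 21.3, 20.01, 11.97 and 25.1 CPM in the nmSC libraries. The spread within mSC was wide, with a pair of libraries at 136 CPM and the other two at 65.6 and 53.8 CPM, all above nmSC (log2 fold change 2.32 ± 0.31, edgeR adjusted p = 5.03e-06). The difference from allSC was 0.60 ± 0.29 (edgeR adjusted p = 0.164), and 0.83 (adjusted p = 0.0239) without mSC replicate 4. Sema6b, low at 1.696 ± 0.285 CPM in mSC and 3.08 ± 0.658 CPM in nmSC, differed by -0.86 ± 0.28 (edgeR adjusted p = 0.0221), with the call lost without mSC replicate 1 (adjusted p = 0.0530), mSC replicate 4 (0.0544) or nmSC replicate 4 (0.0707). Sema6a, a ligand of Plxna2 and Plxna4, was at 55.3 ± 14.2 and 54.04 ± 4.32 CPM, and the difference of 0.04 ± 0.16 (edgeR adjusted p = 0.875) turned negative with library size alone (-0.51, adjusted p = 0.0189).

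Sema7a, the only semaphorin held by a glycolipid anchor and a ligand of Plxnc1 and of integrin β1, stood at 5.16, 5.83, 6.45 and 4.62 CPM in the mSC libraries, at 5.46, 6.36, 8.25 and 6.14 CPM in the allSC libraries and at 9.904, 8.52, 10.2 and 7.12 CPM in the nmSC libraries. Every mSC library was below every nmSC library, while allSC overlapped both (log2 fold change -0.69 ± 0.20, edgeR adjusted p = 0.0093).

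**Figure D3:**
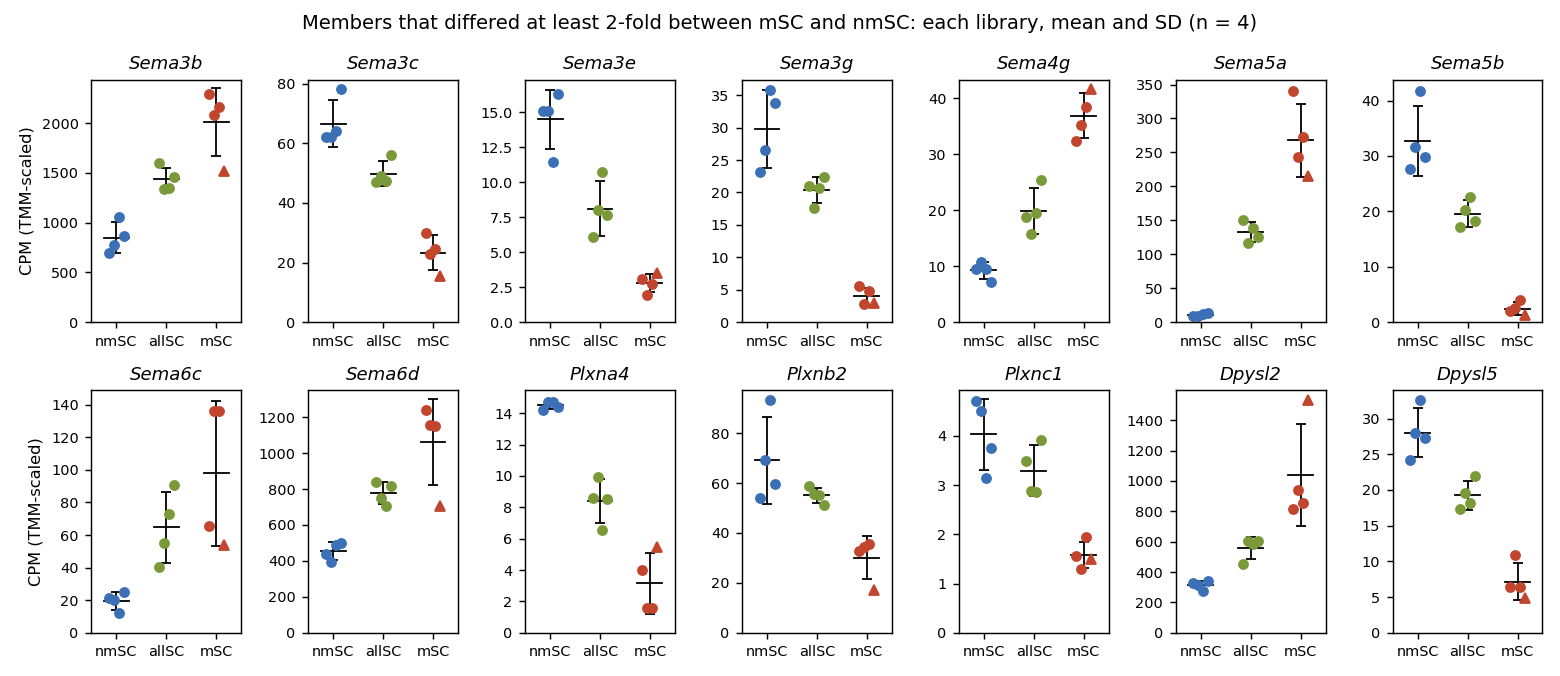
CPM of the 14 genes that differed at least 2-fold between mSC and nmSC, with 1 point per library, the mean and the SD (n = 4) per gate, each panel on its own linear axis from 0 and mSC replicate 4 as a triangle. In each panel the mSC and nmSC libraries are apart, and the allSC mean lies between them.

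Among the 9 plexins, Plxna3 and Plxnb1 were higher in mSC, Plxna2, Plxna4, Plxnb2, Plxnc1 and Plxnd1 were lower, and Plxna1 and Plxnb3 were not called. In sum the plexins were between 75.6 and 109 RPKM in mSC and between 99.4 and 115 RPKM in nmSC, ranges that overlapped. Plxnb3 (chrX:73757090-73772514, plus strand, GRCm38), the receptor of Sema5a, supplied most of that sum and stood at 390.3, 409, 441 and 348 CPM in the mSC libraries, at 470.2, 397, 392 and 416 CPM in the allSC libraries and at 442, 413, 463 and 435 CPM in the nmSC libraries. The 3 gates overlapped, and the difference of mSC from nmSC was -0.14 ± 0.11 (edgeR adjusted p = 0.319), which lies 0.021 from the median of all tested genes. Scaled by library size alone it was -0.70 (adjusted p = 6.73e-05), which lies 0.023 from the median in that scaling.

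Plxna4, which takes part in the response to Sema3a and to Sema6a, stood at 4.01, 1.57, 1.55 and 5.49 CPM in the mSC libraries, at 8.596, 9.92, 6.55 and 8.56 CPM in the allSC libraries and at 14.2, 14.7, 14.7 and 14.4 CPM in the nmSC libraries. The nmSC values were nearly equal and all above allSC, which was in turn above mSC (log2 fold change -2.24 ± 0.29, edgeR adjusted p = 4.89e-06). Within mSC the libraries of mice 1 and 4 were more than 2-fold above those of mice 2 and 3. Between allSC and nmSC, Plxna4 differed by -0.79 ± 0.27 (edgeR adjusted p = 0.0719), and passed without any 1 of the 4 mSC libraries (adjusted p from 0.0122 to 0.0498). Plxna2, the other receptor of Sema6a, lay within the range of receptor genes at 3.95 ± 0.784 CPM in mSC and 6.75 ± 0.954 CPM in nmSC (log2 fold change -0.77 ± 0.21, edgeR adjusted p = 0.00737).

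Plxna1, a receptor partner of Nrp1, stood at 69.2, 55.1, 67.1 and 41.8 CPM in the mSC libraries, at 51.3, 41.5, 41.6 and 39.3 CPM in the allSC libraries and at 45.00, 44.8, 48.4 and 49.7 CPM in the nmSC libraries. Library 4 of mSC was below all nmSC libraries and the other mSC libraries were above them, so the ranges overlapped and the difference was 0.31 ± 0.15 (edgeR adjusted p = 0.105). Without mSC replicate 4 it was 0.45 (edgeR adjusted p = 0.00735), and with library size alone it turned to -0.24. The Wald test of DESeq2 on all 12 libraries called it (0.40, adjusted p = 0.0417). Gm26811 on the opposite strand covers 10.7% of the exon bases of Plxna1. Plxna3, at 45.3 ± 12.9 CPM in mSC and 32.95 ± 2.49 CPM in nmSC, differed by 0.46 ± 0.18 (edgeR adjusted p = 0.042). Its call was lost with the mouse as a block (0.44, adjusted p = 0.0571), with library size alone (-0.08) and in a model of mSC and nmSC only (0.48, adjusted p = 0.0862). It was also lost without allSC replicate 3, mSC replicates 1, 2 or 3 or any 1 of the 4 nmSC libraries (adjusted p from 0.0501 to 0.110). Over the 12 libraries Plxna1 had 5.47 RPKM and Plxna3 5.12 RPKM, and with the mean transcript length Plxna3 was the higher of the pair (20.7 against 17.4).

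Plxnb2, the receptor of Sema4c and Sema4g, stood at 32.8, 34.5, 35.6 and 17.2 CPM in the mSC libraries, at 58.6, 55.7, 55.03 and 51.1 CPM in the allSC libraries and at 53.9, 69.3, 93.3 and 59.7 CPM in the nmSC libraries. The mSC libraries were below all others, most of all that of mouse 4 (log2 fold change -1.19 ± 0.20, edgeR adjusted p = 8.17e-05). Without mSC replicate 4 the difference was -1.004. Plxnb1, the receptor of Sema4d, was at 114 ± 31.6 CPM in mSC and 67.7 ± 5.605 CPM in nmSC (log2 fold change 0.76 ± 0.17, edgeR adjusted p = 0.00164), with the mSC library of mouse 4 at 67.7 CPM inside the nmSC range, and was 0.21 (adjusted p = 0.332) with library size alone.

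Plxnc1, the receptor of Sema7a, stood at 1.56, 1.305, 1.94 and 1.498 CPM in the mSC libraries, at 3.497, 2.88, 2.85 and 3.93 CPM in the allSC libraries and at 4.71, 4.51, 3.14 and 3.76 CPM in the nmSC libraries. All mSC values were below those of both other gates (log2 fold change -1.34 ± 0.26, edgeR adjusted p = 0.000445), at counts per library of 12 to 25 in mSC and 42 to 57 in nmSC. Its mean RPKM was under the 95th percentile of receptor genes in every gate. Plxnd1, the receptor of Sema3e and a gene of vessel growth, stood at 56.1, 51.1, 57.97 and 27.3 CPM in the mSC libraries, at 55.7, 61.2, 65.2 and 65.9 CPM in the allSC libraries and at 57.3, 63.02, 90.4 and 74.02 CPM in the nmSC libraries. The ranges of mSC and nmSC overlapped and the difference was -0.56 ± 0.19 (edgeR adjusted p = 0.0267). It was lost without nmSC replicate 3 (-0.42, adjusted p = 0.105) or nmSC replicate 4 (-0.53, adjusted p = 0.0604), and was -0.37 without mSC replicate 4.

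Of the neuropilins, the co-receptors of class 3 semaphorins and of VEGF, Nrp2 was lower in mSC and Nrp1 was not called. Nrp2 (chr1:62703285-62818695, plus strand, GRCm38), with the higher RPKM of the pair in every gate, stood at 146, 129.9, 130.5 and 92.5 CPM in the mSC libraries, at 173, 176, 197 and 209.9 CPM in the allSC libraries and at 207, 211, 254 and 262 CPM in the nmSC libraries. All mSC libraries were below the libraries of both other gates (log2 fold change -0.91 ± 0.14, edgeR adjusted p = 4.12e-05), and the difference from allSC was -0.60 ± 0.14 (edgeR adjusted p = 0.006). Nrp1 was at 58.1 ± 5.302 CPM in mSC, 55.9 ± 2.19 CPM in allSC and 49.8 ± 8.096 CPM in nmSC, with a difference of 0.22 ± 0.13 (edgeR adjusted p = 0.191) between mSC and nmSC. With library size alone this turned to -0.33 (adjusted p = 0.0351), but relative to the median of all tested genes Nrp1 was 0.38 above with TMM factors and 0.39 above without them. The ratio of Nrp2 to Nrp1 in RPKM needs no scaling between libraries. It was 1.76 ± 0.202 (SD, n = 4) in mSC, 2.80 ± 0.291 in allSC and 3.91 ± 0.404 in nmSC, with ranges of 1.51 to 1.99, 2.49 to 3.08 and 3.54 to 4.32 that did not overlap.

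Of the CRMPs, Dpysl2 and Dpysl4 were higher in mSC, Dpysl5 was lower, and Crmp1 and Dpysl3 were not called. Dpysl2 (chr14:66802864-66868688, minus strand, GRCm38) encodes CRMP2, which binds tubulin dimers. It stood at 814, 942, 858 and 1534 CPM in the mSC libraries, at 452, 602, 587 and 603 CPM in the allSC libraries and at 328, 315, 277 and 339 CPM in the nmSC libraries. Each mSC library was above each allSC library and each of these above each nmSC library (log2 fold change 1.72 ± 0.18, edgeR adjusted p = 1.77e-07). The mSC library of mouse 4 was far above the others, and without it the difference was 1.47. Dpysl2 made up 95.8% of the summed CRMP RPKM in mSC, 92.6% in allSC and 87.6% in nmSC.

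Dpysl5, which encodes CRMP5, stood at 6.39, 10.9, 6.45 and 4.87 CPM in the mSC libraries, at 17.3, 19.6, 18.1 and 21.95 CPM in the allSC libraries and at 24.2, 27.9, 32.5 and 27.2 CPM in the nmSC libraries. The order was the reverse of that of Dpysl2, with nmSC highest and no overlap (log2 fold change -1.96 ± 0.20, edgeR adjusted p = 1.64e-07). Dpysl4 was at 36.5 ± 3.78 CPM in mSC and 20.3 ± 7.02 CPM in nmSC (log2 fold change 0.84 ± 0.18, edgeR adjusted p = 0.000946), the nmSC library of mouse 3 being far above the other nmSC libraries, and was 0.29 (adjusted p = 0.152) with library size alone. Dpysl3, at 12.8 ± 1.97 and 14.3 ± 2.92 CPM, differed by -0.17 ± 0.19 (edgeR adjusted p = 0.485), and Crmp1, within the range of receptor genes at 2.09 ± 0.655 and 2.84 ± 0.763 CPM, by -0.44 ± 0.31 (edgeR adjusted p = 0.262). CRMPs are abundant in neurons, whose 7 markers were between 31.3 and 39.1 CPM in sum in mSC, 22.3 and 30.1 CPM in allSC and 16.4 and 23.8 CPM in nmSC, with 2 higher and 1 lower in mSC. Their part in the CRMP values was not tested.

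The mixed allSC population was compared with each enriched gate. Both comparisons use the same allSC libraries and are given side by side. Between mSC and allSC, 15 of the 36 genes differed, 5 higher and 10 lower in mSC, against 17.6% of all tested genes (8.76% higher and 8.80% lower). With library size alone 15 were called as well, 3 higher and 12 lower, against 4400 of all 18597 tested genes, 415 of them higher. With TMM factors the median log2 fold change was -0.20, against -0.052 over all genes. The 5 higher were Sema5a, Sema4g, Dpysl2, Sema3b and Sema6d. The 10 lower were Sema5b, Sema3g, Sema3e, Plxna4, Dpysl5, Sema3c, Plxnc1, Plxnb2, Sema3a and Nrp2. Sema3b differed by 0.49 ± 0.15 (edgeR adjusted p = 0.0272), and lost its call with library size alone (0.19, adjusted p = 0.335) and without allSC replicates 2, 3 or 4 or mSC replicates 2 or 3 (adjusted p up to 0.0860). Sema3a differed by -0.78 ± 0.25 (edgeR adjusted p = 0.0332), a call lost without allSC replicates 2, 3 or 4 or mSC replicates 1, 2 or 3 (adjusted p up to 0.131). Without mSC replicate 4, 18 of the 36 genes were called, 8 higher and 10 lower, with Plxna1 (0.58, adjusted p = 0.00208), Plxnb1 (0.51, adjusted p = 0.00203) and Sema6c added. Over all genes 3546 of 19369 were called without that library, 1965 of them higher. Differences that were not called turned sign without it for Plxnb3 (-0.075 to 0.0084), Sema4c (-0.063 to 0.12) and Sema4d (-0.15 to 0.067).

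Between allSC and nmSC, 8 of the 36 genes differed, against 10.4% of all tested genes (7.54% higher and 2.83% lower in allSC). The 6 higher in allSC were Sema5a, Sema6c, Sema4g, Dpysl2, Sema6d and Sema3b, with log2 fold changes of 3.58, 1.72, 1.10, 0.83, 0.77 and 0.76, and the 2 lower were Sema3e (-0.83) and Sema5b (-0.74). With library size alone 16 were called, 6 higher and 10 lower, against 2951 of all 18597 tested genes, 744 of them higher. The median was -0.16 against -0.040 over all genes. The libraries of the 2 gates did not overlap for 16 of the 36 genes, against 19.3% of all tested genes. The count of calls was 17, 9 higher and 8 lower, both without mSC replicate 4 and in a model of allSC and nmSC only. Over all genes these settings called 2785 of 19369 and 2899 of 18137, against 1928 of 18597 in the main model. Added without mSC replicate 4 were Plxnb1 (0.44, adjusted p = 0.00531), Dpysl4 (0.52, 0.0356) and Plxna3 (0.36, 0.0402) as higher in allSC. Those added as lower were Plxna4 (-0.81, adjusted p = 0.0122), Sema3g (-0.57, 0.0229), Dpysl5 (-0.56, 0.0165), Sema4d (-0.50, 0.0259), Sema3c (-0.44, 0.0142) and Nrp2 (-0.33, 0.0394). Dpysl4, at 0.55 ± 0.18 (edgeR adjusted p = 0.0601), passed with the mouse as a block (0.59, adjusted p = 0.0334).

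The mean of allSC lay between the means of mSC and nmSC for 32 of the 36 genes, among them all 25 called between mSC and nmSC. The allSC gate took in both clouds of events, so a mean in between follows from how the gates were drawn. The share over all tested genes was not computed, so these counts describe the gates and are no trait of the 36 genes. For the 14 genes with a 2-fold difference it lay between 30.3% and 57.7% of the way from nmSC to mSC on the CPM scale, with a median of 42.6%.

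Other genes of the pathway were taken from a pair of lists. Of 26 co-receptors and surface partners of semaphorins, 25 were tested, and 15 (60%) differed between mSC and nmSC, 3 higher and 12 lower, with a median log2 fold change of -0.34, against 40.5% of all tested genes (20.4% higher and 20.2% lower). With library size alone 21 were called, 3 higher and 18 lower, against 11864 of all 18597 tested genes, 1443 of them higher. Cell adhesion molecules of the L1 family, which associate with neuropilins, parted ways. L1cam was at 8.71 CPM in mSC and 163 CPM in nmSC (-4.20 ± 0.21, edgeR adjusted p = 1.28e-11) and Chl1 at 15.3 and 103 CPM (-2.74 ± 0.15, adjusted p = 2.12e-11), whereas Nrcam was at 349 and 95.9 CPM (1.86 ± 0.18, adjusted p = 8.96e-08). L1cam is also one of the immature markers used to check the gates. The integrin subunit Itga1 fell by 2.94 on the log2 scale, to 6.86 CPM from 52.8 CPM. Met, a receptor tyrosine kinase that couples to plexin B, was lower (-1.15 ± 0.18, adjusted p = 3.37e-05), as was the contactin Cntn1 (-1.14 ± 0.19, adjusted p = 7.17e-05). Kdr, the VEGF receptor that pairs with neuropilins, was at 20.3 CPM in mSC and 5.90 CPM in nmSC (1.80 ± 0.21, adjusted p = 9.66e-07), beside the endothelial sums and median given for Sema3g. All 7 had mSC and nmSC libraries that did not overlap.

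**Figure D4:**
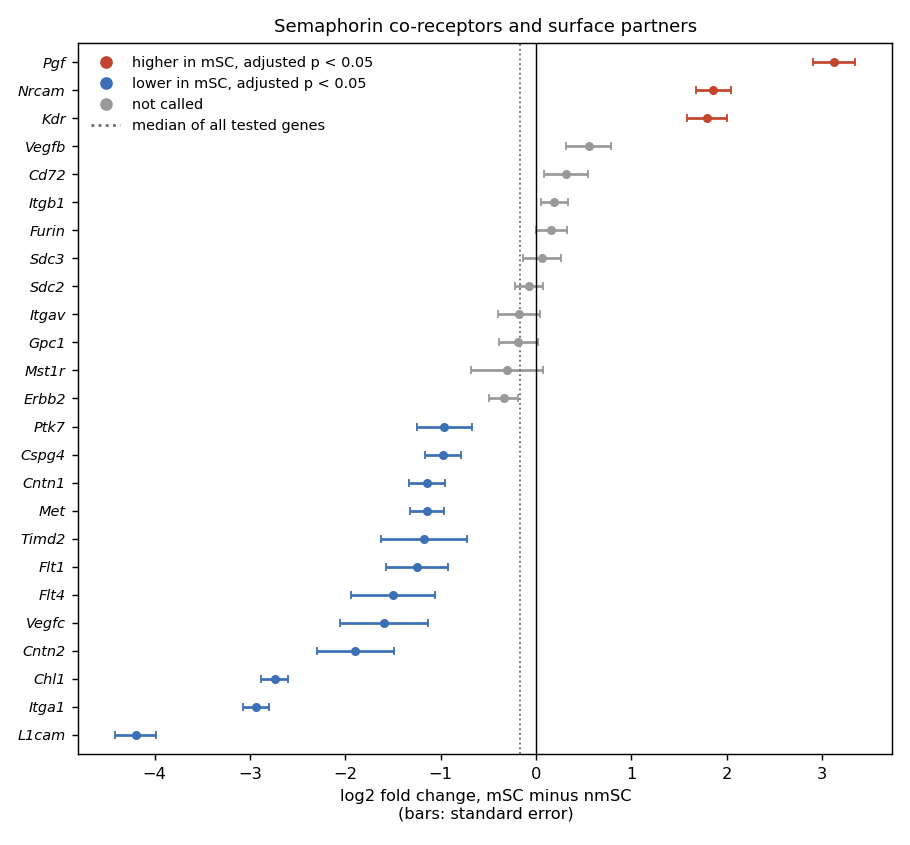
Log2 fold change between mSC and nmSC (x axis, mSC minus nmSC, bars show the standard error, n = 4 libraries per gate) of the 25 co-receptors and surface partners tested, sorted by size. In it 12 genes are called lower and 3 higher, with the dotted line at the median of all tested genes (-0.16).

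Of 39 signal transducers of plexins and CRMPs, 37 were tested and 20 (54.1%) differed, 13 higher and 7 lower, with a median of 0.093, against the same 40.5% of all tested genes. With library size alone the split was 4 higher and 22 lower, against 11864 of all 18597 tested genes called, 1443 of them higher. The Ras-family GTPases Mras (188 and 40.4 CPM in mSC and nmSC, 2.22 ± 0.13, edgeR adjusted p = 5.71e-11) and Rras2 (1.12 ± 0.17, adjusted p = 2.41e-05) were higher in mSC. So were Limk2, a kinase that phosphorylates cofilin (142 and 44.4 CPM, 1.68 ± 0.16, adjusted p = 8.12e-08), Sh3bp1, a GTPase-activating protein of Rac (0.99 ± 0.12, adjusted p = 2.56e-06), and Mical2, a flavoprotein that oxidises actin (0.98 ± 0.17, adjusted p = 0.000149). Among the 7 lower were Arhgef11, an exchange factor that binds plexin B (-0.35 ± 0.13, adjusted p = 0.0350), and Trio (-0.59 ± 0.15, adjusted p = 0.00430), whose libraries overlapped between the gates, and the values of this pair do not give the range of the 7.

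Markers of other cells that a nerve holds were low or moved with the gates as follows. Of 5 immune markers tested 1 was lower in mSC. The 8 listed summed to between 15.9 and 24.6 CPM in mSC, 21.7 and 30.8 CPM in allSC, and 21.4 and 30.1 CPM in nmSC. Aif1 had no read in the mSC libraries, which allows up to 0.375 CPM at the floor of 3 counts. Of 8 fibroblast and perineurial markers 1 was higher and 2 were lower, and their sum, mostly Col1a1 (788 CPM in mSC and 3427 CPM in nmSC), was between 558 and 1238 CPM in mSC, 2282 and 2700 CPM in allSC and 3177 and 4423 CPM in nmSC. Of 5 mural markers 1 was higher and 1 lower, summing to between 26.1 and 40.0 CPM in mSC, 16.3 and 21.3 CPM in allSC and 11.6 and 12.6 CPM in nmSC. Whether such cells or free RNA contributed to the values of Sema3a, Sema3c or the other genes lower in mSC was not tested.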

How the data were processed

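Polyadenylated RNA of the sorted cells was amplified over full transcripts by Smart-Seq2, a PCR method without molecular identifiers that does not mark strand, so floors cover counting error only. After trimming, the authors mapped reads using STAR (2.6.1c in the submitters' processing notes) and summarised them per gene with featureCounts, and the raw counts of 25700 genes were deposited without normalization. The notes name the mouse build GRCm38.p5, whereas the methods name a human one, and the identifiers are those of mouse genes. Options for strand, multi-mapping and overlapping reads are not given in the sources used here. Symbols, positions and exon lengths came from GENCODE M21 (GRCm38), which matched 25664 identifiers, and promoter windows from RefSeq (GRCm38.p6).

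Gates were compared with edgeR 4.0.16 in R 4.3.3 in 1 model over the 12 libraries, with TMM factors, the expression filter by gate and an adjusted p threshold of 0.05. TMM factors were between 0.744 and 0.871 in mSC, 0.986 and 1.03 in allSC, and 1.16 and 1.28 in nmSC. RPKM used the union of exons, with the mean transcript length as an alternative. The edgeR step was run on simulated counts in which few genes were changed, in mSC only. That setting lacks the broad difference between these gates, so it cannot vouch for the calls given here. The genes, lists and tests were chosen with earlier results of these data known. Every gene of the families is named, and values per library are given for those with a log2 fold change of at least 1 between mSC and nmSC, an adjusted p under 0.05 and a mean of at least 2 CPM, and for the gene with the highest RPKM of each class. Of each pathway list, up to 5 genes per direction are named, those with the largest change among genes past the threshold with a mean of at least 10 CPM, and 1 transducer that this rule names is not reported here. Marker genes are named where they bear on a result.

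The labels give each library a subject number, read here as the mouse, which pairs the libraries across gates. Same-numbered libraries deviated from their gate means with correlations across genes of -0.23 to 0.15 between mSC and nmSC, 0.039 to 0.25 between mSC and allSC, and -0.093 to 0.17 between allSC and nmSC. The mouse as a block was an alternative, as were the Wald test of DESeq2 1.42.0 and edgeR with relative log expression (RLE) factors. Further alternatives were library size alone, 2 other settings of the filter, models of a single pair of gates, and leaving out each library. No 2 libraries of a gate were duplicates (chi-square per degree of freedom of 4.03 to 95.7). Sex was not used, since the labels do not give it. In the paper's multidimensional scaling plot, libraries of the same sex formed pairs within each gate. How much sex adds to the spread within a gate was not tested.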

Additional observations from a re-analysis of the deposited data

Results flagged for a closer look

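For each of the 36 genes and each gate, the highest and the lowest of the 4 libraries were set against the spread of the other libraries by Dixon's criterion. Of 108 groups 12 had a library that stood apart, where chance alone gives about 1 in 20, or 5.4.

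Of the 12, 4 were in the mSC library of mouse 4. In it Sema6d was at 708 CPM where the other mSC libraries were between 1149.9 and 1238 CPM, Plxnb2 was at 17.2 CPM (others 32.8 to 35.6 CPM), Sema4d was at 5.62 CPM (others 11.6 to 12.6 CPM), and Dpysl3 was at 15.7 CPM (others 11.6 to 12.04 CPM). The first 3 were low and the last was high.

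In allSC, Dpysl2 was at 452 CPM in the library of mouse 1 (others 587 to 603 CPM) and Sema4d at 9.62 CPM in the same library (others 12.02 to 12.5 CPM). Sema4a was at 0.806 CPM in the allSC library of mouse 4 (others 2.54 to 2.84 CPM), and Sema4c at 115 CPM in that library (others 80.9 to 85.3 CPM). In nmSC, Dpysl4 was at 30.7 CPM in the library of mouse 3 (others 15.4 to 17.7 CPM), Plxna2 at 8.18 CPM in that of mouse 2 (others 6.15 to 6.40 CPM), and Sema3c at 78.2 CPM in that of mouse 4 (others 62.1 to 64.2 CPM). Sema3a was at 2.31 CPM in the mSC library of mouse 1 (others at 2.87 CPM).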

How the results depend on the processing

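Of the 25 genes called between mSC and nmSC, 18 kept call and direction in all 19 alternatives, and Dpysl4, Plxna3, Plxnb1, Plxnd1, Sema4b, Sema4d and Sema6b lost the call in at least 1. Plxnd1 was not called by DESeq2 (-0.48, adjusted p = 0.0607) or in a model of the 2 gates (-0.55, adjusted p = 0.0773). Sema4d (-0.62, adjusted p = 0.0559) and Plxna3 (0.48, adjusted p = 0.0862) were not called in the latter either. Sema4f had 3 to 13 counts per library in mSC, the lowest at the floor of 3, and the effect of depth on its call was not tested.

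With library size alone, which leaves out the TMM factors, the median of all genes moved to -0.73. Nrp1 (-0.33), Plxna1 (-0.24), Plxna3 (-0.084), Sema4c (-0.24) and Sema6a (-0.51) changed sign there, Sema4b fell to 0.035 (adjusted p = 0.883), and 16 genes (6 higher and 10 lower) were called between allSC and nmSC in place of 8. A model of allSC and nmSC only called 17. Over all tested genes the calls between these gates were 1928 in the main model, 2951 with library size alone and 2899 in the 2-gate model. The cause of these changes was not tested. Sema3f changed sign with DESeq2 (0.0081).

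Leaving out 1 library at a time gave 22 to 26 genes called between mSC and nmSC, 12 to 18 between mSC and allSC, and 7 to 17 between allSC and nmSC. Over all tested genes the calls ranged from 6174 to 7990, from 2205 to 4204 and from 1344 to 2785 in the same order. The log2 fold change of Sema3f ranged from -0.22 to 0.13 and that of Sema6a from -0.040 to 0.21.

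With the replicate block (the mouse), 25 genes were called between mSC and nmSC (9 higher and 16 lower), 14 between mSC and allSC (4 and 10) and 9 between allSC and nmSC (7 and 2), with 14 co-receptors and 17 transducers. The block changed the calls of Plxna3 (0.44), Sema4f (-1.24), Sema6d against allSC (0.44) and Dpysl4 between allSC and nmSC (0.59), and no other among the 36 genes.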
